A study of Mus musculus with 6 samples.

Results

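The genes of respiratory complex I were examined in brown adipose tissue (BAT) of miR-22 KO mice. They were taken as the genes whose symbol starts with Nduf, without *Ndufa4* and *Ndufa4l2*, whose products are counted with complex IV. The mouse annotation (RefSeq on GRCm38.p6) holds 52 such genes, of which 47 encode proteins and 5 are pseudogenes. A probe matched by RefSeq accession was on the array for 44 of the 47, out of 23462 genes matched in all. These 44 genes were 36 subunits and 8 assembly factors, *Ndufaf1* to *Ndufaf8*, and lie on 17 chromosomes. The protein-coding genes *Ndufb1*, *Ndufb4b* and *Ndufb4c* and the 5 pseudogenes had no matched probe.

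Total RNA was prepared from BAT of male mice that were 8 weeks old, 3 of them wild type (WT) and 3 with a constitutive deletion of miR-22 (miR-22 KO), a strain obtained from the Jackson Laboratory. The deletion is not restricted to adipocytes, so miR-22 is missing from every tissue of the KO mice. The RNA was labelled with a single dye, Cy3, and each of the 6 arrays, all on 1 slide, carried 1 mouse. Mice of each group are numbered below in the order of their labels, and p-values measure the spread between these mice. The methods describe RNA of BAT with no sorting step, whereas the series' design text calls the samples flow separated without naming a gate, so whether whole tissue or a separated fraction was measured is not settled. In bulk samples, fewer cells of a type and less RNA per cell cannot be told apart.

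Complex I is the entry point of the respiratory chain for NADH. It passes electrons from NADH to ubiquinone in the matrix arm and couples this to the pumping of protons in the membrane arm. Its catalytic core is built from nuclear and mitochondrial gene products, around which many accessory subunits are placed, and assembly factors bring the modules together without remaining in the finished enzyme. In brown adipocytes the proton gradient is dissipated as heat through *Ucp1*, so a high respiratory capacity is a hallmark of the tissue. MicroRNAs such as miR-22 bind transcripts mainly through the seed, bases 2 to 8 of the mature strand.

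The RNA that the KO mice lack, and the promoters of 3 complex I genes that were downregulated in at least 1 of the comparisons described further on, are shown here to tie the results to their sequences. The major strand of miR-22 lies at chr11:75463772-75463793 on the plus strand of GRCm38.p6, and its seed is in capitals.
miR-22-3p: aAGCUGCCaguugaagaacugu
The promoters run from 250 bases before to 50 bases after the start of a RefSeq transcript (GRCm38.p6), all 3 on the plus strand, and capitals mark letters that match 1 of 5 motifs of factors known to act on nuclear genes of respiration. The *Ndufa11* promoter, chr17:56717512-56717811, held the letters of the CRE at position -158 and those of the NRF1 motif on both strands from position -60, where the 2 matches overlap.
Ndufa11: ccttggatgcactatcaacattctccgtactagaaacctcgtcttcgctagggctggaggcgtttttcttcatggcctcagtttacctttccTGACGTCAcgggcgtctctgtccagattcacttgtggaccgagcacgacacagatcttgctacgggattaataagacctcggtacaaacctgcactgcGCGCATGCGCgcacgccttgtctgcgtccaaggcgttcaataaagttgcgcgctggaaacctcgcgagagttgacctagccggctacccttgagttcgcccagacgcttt
The *Ndufaf4* promoter, chr4:24897833-24898132, held the NRF1 letters on both strands from position -113, again overlapping, and once more at position 2 on the minus strand.
Ndufaf4: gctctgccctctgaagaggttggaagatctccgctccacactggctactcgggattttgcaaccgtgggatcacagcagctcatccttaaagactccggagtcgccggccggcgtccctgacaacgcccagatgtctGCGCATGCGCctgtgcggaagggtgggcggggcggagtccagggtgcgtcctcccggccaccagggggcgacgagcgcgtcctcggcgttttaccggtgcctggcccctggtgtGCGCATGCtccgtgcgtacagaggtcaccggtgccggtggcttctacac
The *Ndufaf8* promoter, chr11:120098684-120098983, held the YY1 letters at position 11.
Ndufaf8: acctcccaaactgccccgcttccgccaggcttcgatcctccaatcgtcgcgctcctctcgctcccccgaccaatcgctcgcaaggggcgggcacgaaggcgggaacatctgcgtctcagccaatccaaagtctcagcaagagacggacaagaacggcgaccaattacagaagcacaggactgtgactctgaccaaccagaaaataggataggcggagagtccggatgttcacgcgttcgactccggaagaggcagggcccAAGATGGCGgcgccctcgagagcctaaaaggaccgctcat

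The motifs were searched on both strands of the promoters of 39 members. Those of the other 5 were not used here. The NRF1 letters, GCATGCGC, stood in 5 of the 39 (12.8%), against 3.05% of 27025 genes with a promoter of the same length. The YY1 letters, AAGATGGCG, stood in 6 (15.4%, against 1.64%), and the CRE, TGACGTCA, in 3 (7.69%, against 2.03%). The ETS letters, CCGGAAGT, stood in the promoter of *Ndufs3* alone (2.56%, against 4.31%), and the ERR letters, TCAAGGTCA, in none (against 0.466%). At least 1 of the 5 motifs was found in 14 of the 39 members (35.9%) and in 10.6% of all genes. It was found in 5 of the 12 genes that were downregulated when all spots were used, as described next, and in 9 of the other 27. These matches describe letters in the window and do not show binding.

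The first question was whether complex I genes differ between WT and miR-22 KO mice. Signals are given as the log2 of the scanner signal over the 75th percentile of the array, and differences below are KO minus WT on this scale. Many spots of these genes had been marked by the scanner software as not uniform, so both treatments of such spots are given. Of 54 probes for the 44 genes, 14, 17 and 44 were marked in WT 1, WT 2 and WT 3, and 36, 17 and 14 in KO 1, KO 2 and KO 3. At least 53 of the 54 were well above background on each array, and none was saturated.

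With all spots used, each of the 44 genes was tested and each had a lower mean in KO mice, where 55.9% of all genes did. Of the 44, 13 were downregulated with an unadjusted p from limma under 0.05 (29.5%, against 11.1% of the 16110 genes tested) and 0 were upregulated (against 9.47%). None passed the threshold after Benjamini-Hochberg adjustment (0.472% of all genes did), and the smallest adjusted p was 0.123. The median difference was -0.35 for subunits and -0.44 for assembly factors, against -0.06 for all genes. A gene is called downregulated below when it was lower in KO mice with an unadjusted p from limma under 0.05 in the fit named, and where no fit is named these 13 genes are meant. With SAM, the method named by the study, 10 genes had an unadjusted p under 0.05, all among these 13 (8.13% of all genes were lower by SAM), and none passed after adjustment.

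With marked spots left out, 20 of the 44 genes kept at least 2 values per group, 16 subunits and 4 assembly factors. All 20 were below 0 (52.9% of all genes), with medians of -0.35 and -0.41 against -0.03 for all genes. *Ndufab1*, *Ndufaf6* and *Ndufaf8* were downregulated (3 of 20, against 8.82% of 14711 genes). None passed after adjustment (0.184% of all genes did), by limma or by SAM. These 3 genes were also among the 13. Other settings of this fit gave 5 of 20 with trended and robust eBayes (against 10.7%), 2 of 13 in the authors' processed values (against 11.8%) and 0 of 9 when slide row was blocked (against 2.38%). Leaving out WT 1, WT 2 or WT 3 gave 2 of 9, 1 of 9 and 3 of 20 (against 7.75, 5.60 and 6.66%), and leaving out KO 1, KO 2 or KO 3 gave 3 of 20, 2 of 13 and 9 of 13 (against 6.10, 7.57 and 10.3%). Of the 9 genes whose tested probe had no marked spot on any array, 3 had all KO mice below all WT mice, against 14.7% of all such genes. Among these 3, *Ndufaf5* was tested on the dimmer of its probes.

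**Figure D1:**
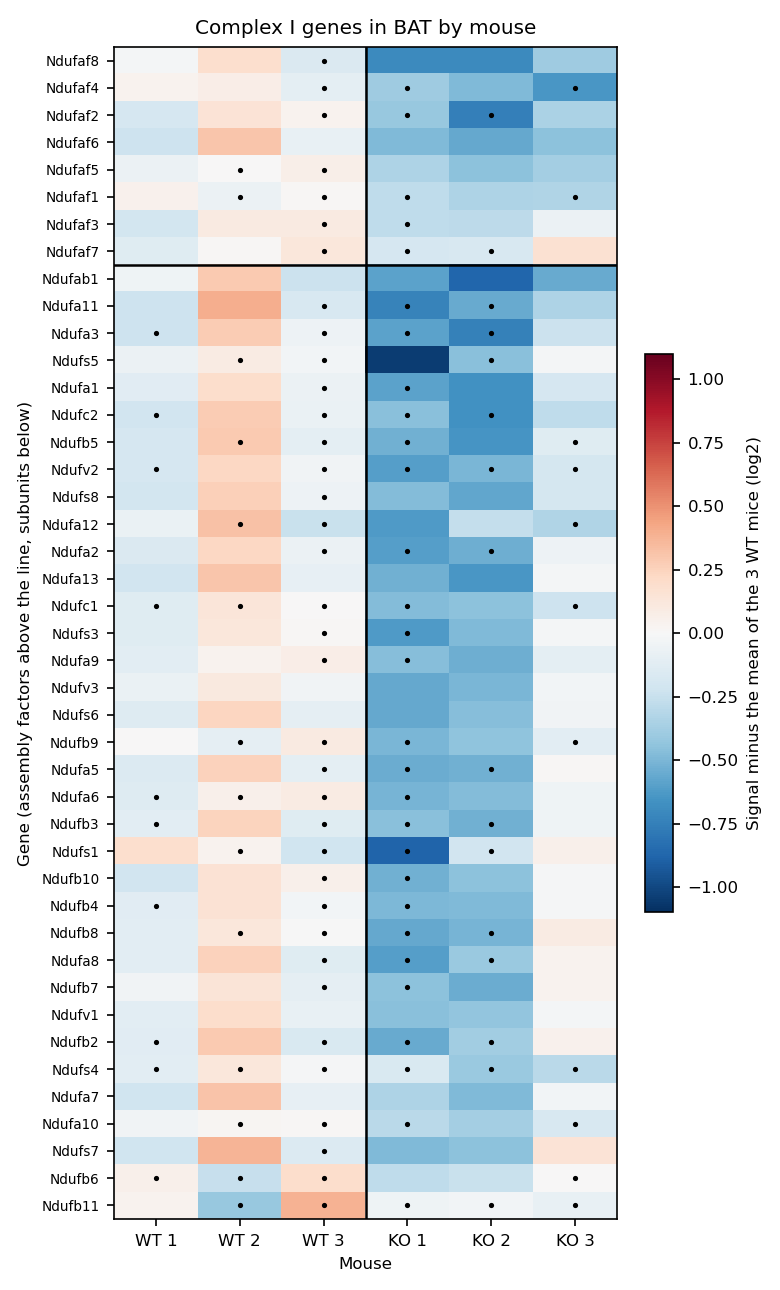
Signal of 43 of the 44 complex I genes in each of the 6 mice (columns), as log2 difference from the mean of the 3 WT mice (colour scale), with all spots used and 75th percentile scaling. Assembly factors stand above the horizontal line and subunits below it, each ordered by their difference, and a dot marks a spot that the scanner software marked as not uniform. Over all 44 genes, KO 1 lay below all WT mice in 43 and KO 2 in 41, whereas KO 3 did so in 17. Among all 16110 genes tested the counts were 6503 for KO 1, 6740 for KO 2 and 4728 (29.3%) for KO 3.

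The lower signal was carried unequally by the 3 KO mice. Averaged over the 36 subunits, the scaled log2 signal was 4.37, 4.65 and 4.44 in WT mice, against 3.97, 4.0 and 4.39 in KO mice. KO 3 therefore lay within the range of the WT mice, and the groups overlapped. Averaged over the 8 assembly factors, the signal was 2.54, 2.73 and 2.63 in WT mice, against 2.25, 2.16 and 2.33 in KO mice. Here all KO mice lay below all WT mice. Gene by gene, KO mice and WT mice were fully separated for 11 of 36 subunits and 6 of 8 assembly factors, 17 of 44 in all (38.6%, against 17.1% of all genes). KO 3 was the highest KO mouse in 33 of 36 subunits and 5 of 8 assembly factors, and WT 2 the highest of the 6 mice in 30 and 5. Among all 16110 genes, KO 3 was the highest KO mouse in 7360 and WT 2 the highest of the 6 mice in 5215.

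Leaving out KO 3 raised the number of downregulated genes from 13 to 33 of 44 (against 13.7% of all genes), 28 subunits and 5 assembly factors. Without KO 1 or KO 2 the number was 6 (against 7.26%) and 4 (against 8.19%). It was 13, 6 and 6 without WT 1, WT 2 or WT 3 (against 9.69, 6.96 and 7.42%). WT 1 and WT 2 were in another row of the slide than the other 4 arrays, and no KO mouse was in their row. With the row as a block, which sets the KO mice against WT 3, all 44 genes stayed below 0, with medians of -0.33 and -0.41, but 0 were downregulated (against 3.08%).

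**Figure D2:**
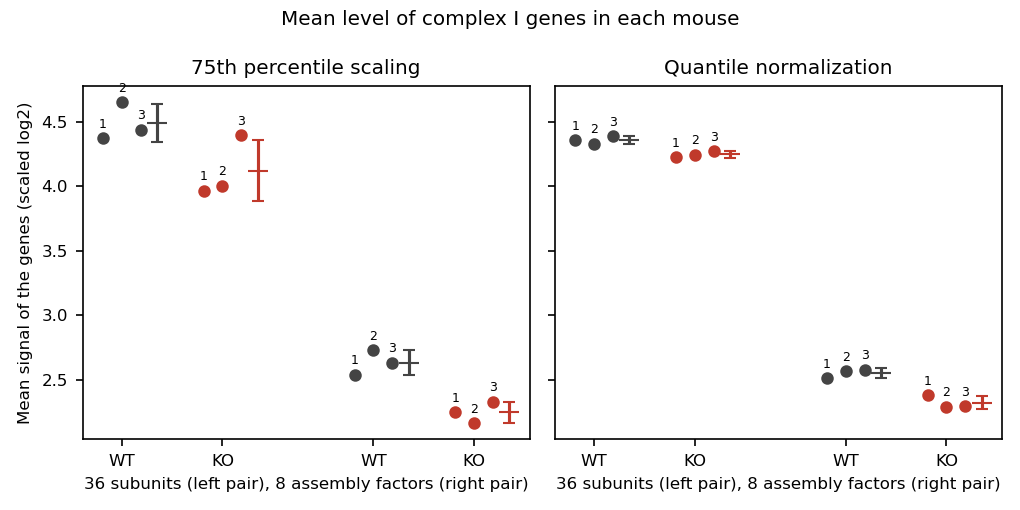
Mean scaled log2 signal of the 36 subunits and the 8 assembly factors in each mouse, with the number of the mouse beside each point and bars for the mean and SD of 3 mice, after 75th percentile scaling (left) and quantile normalization (right). With the first scaling KO 3 (4.39) lay among the WT mice for subunits, and with the second the KO mice (4.22 to 4.27) lay below the WT mice (4.33 to 4.39).

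Complex I genes are among the brightest on these arrays, and the difference between the groups depended on brightness for genes at large. When all 16110 genes were divided into 10 groups of equal size by mean signal, the brightest group held 36 of the 44 members, the next one 7 and the one after it 1. The median difference was -0.29 in the brightest group, where 94.2% of genes were below 0 and 17.9% were downregulated. It was -0.21 in the next group and 0.15 in the dimmest one. The subunits, all but 1 of them in the brightest group, thus had a median (-0.35) close to that of genes of like brightness, and the assembly factors (-0.44), 1 of them in the brightest group, 6 in the next and 1 in the one after it, lay further from it.

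Quantile normalization, which gives all arrays the same distribution, removed most of this dependence. The brightest group then had a median of -0.05, and the median of all genes was -0.03. With all spots used, 39 of 44 complex I genes were below 0 (against 54.9% of all genes), and the median was -0.09 for subunits and -0.25 for assembly factors. *Ndufab1*, *Ndufaf4*, *Ndufaf6* and *Ndufaf8* kept an unadjusted p under 0.05 (4 of 44, 9.09%, against 10.6% of all genes), and none passed after adjustment (0.385% of all genes did). The subunit means were 4.36, 4.33 and 4.39 in WT mice and 4.22, 4.25 and 4.27 in KO mice. The assembly factor means were 2.51, 2.57 and 2.58 against 2.38, 2.29 and 2.29. For both groups of genes the KO mice then lay below the WT mice, by less than before. Single genes did not overlap between the groups in 9 of 36 subunits and 5 of 8 assembly factors (15.9% of all genes).

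**Figure D3:**
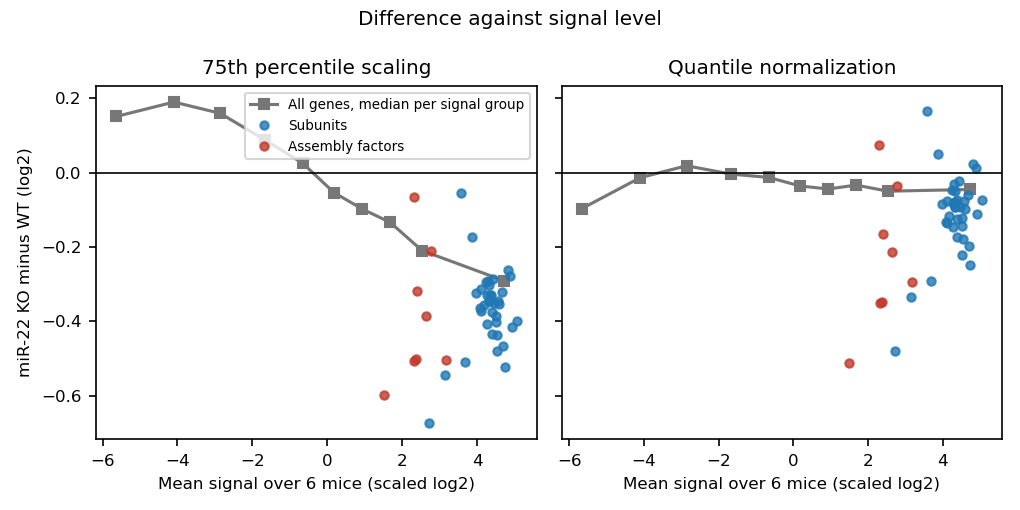
Difference between miR-22 KO and WT mice (log2) against the mean scaled log2 signal over 6 mice, for subunits, assembly factors and, as squares, the median of all genes in each of 10 groups of signal, drawn at the middle of the range of that group. With 75th percentile scaling (left) the median of all genes fell from 0.15 in the dimmest to -0.29 in the brightest group, and with quantile normalization (right) it was -0.05 in the brightest.

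*Ndufab1* showed the largest difference of all 44 genes with 75th percentile scaling and all spots used, whereas the assembly factor *Ndufaf8* exceeded it after quantile normalization (-0.51 against -0.48) and, narrowly, with marked spots left out (-0.68 against -0.67). *Ndufab1* encodes the mitochondrial acyl carrier protein, which serves fatty acid and lipoic acid synthesis in the matrix as well as complex I. Its scaled log2 signal was 3.02, 3.35 and 2.83 in WT mice and 2.48, 2.19 and 2.51 in KO mice, and no spot was marked. All KO mice lay below all WT mice. The difference was -0.67 (standard error 0.18, adjusted p = 0.127 from limma), which is 37.3% less signal. It was -0.48 after quantile normalization and -0.44 with the row as a block, where it was not called (unadjusted p = 0.127 from limma). An annotated pseudogene of *Ndufab1* had no probe, and whether its transcript adds to the signal was not tested.

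The other subunits that were downregulated when all spots were used were 5 of the 19 membrane arm subunits tested and 1 of the 16 of the matrix arm, where 11.1% of all genes and 17.9% of the brightest group were called. A difference between the arms was not tested. In the membrane arm, *Ndufa11* was at 3.20, 3.82 and 3.25 in WT mice and at 2.68, 2.86 and 3.08 in KO mice (difference -0.55, standard error 0.21). The small single-span subunit *Ndufa3* was at 4.78, 5.29 and 4.95 against 4.42, 4.26 and 4.77 (-0.52, standard error 0.20). In both genes KO 3 was the highest KO mouse and lay just below the lowest WT mouse. A second *Ndufa3* probe gave -0.40.

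*Ndufa1*, a single-span subunit encoded on the X chromosome, was at 4.64, 4.96 and 4.70 in WT mice and at 4.18, 4.11 and 4.58 in KO mice (-0.48, standard error 0.18). *Ndufc2* was at 4.73, 5.22 and 4.86 against 4.47, 4.27 and 4.66 (-0.47, standard error 0.18). Its partner in the membrane arm, *Ndufc1*, was at 4.57, 4.84 and 4.71 against 4.23, 4.25 and 4.48 (-0.39, standard error 0.14). The adjusted p of these 5 genes lay between 0.203 and 0.217 from limma. With marked spots left out, of these 5 only *Ndufa1* could be tested, from 2 mice per group, at -0.46 (unadjusted p = 0.128 from limma). Quantile normalization brought the 5 differences to between -0.33 and -0.12, and none was then called.

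The 7 nuclear core subunits bind the flavin and the iron-sulfur clusters of the matrix arm or line the ubiquinone site. All 7 were below 0 with 75th percentile scaling, with a median of -0.34, where 94.2% of genes in the brightest group were below 0. Of the 7, 1 was downregulated (14.3%, against 11.1% of all genes and 17.9% of the brightest group). That gene, *Ndufv2*, holds an iron-sulfur cluster beside the site of NADH oxidation. It was at 4.42, 4.84 and 4.58 in WT mice and at 4.0, 4.11 and 4.42 in KO mice (-0.44, standard error 0.17, adjusted p = 0.226 from limma). All KO mice lay below all WT mice, but KO 3 and WT 1 differed by less than 0.01.

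*Ndufv1*, which binds NADH and flavin, was at 4.37, 4.68 and 4.40 in WT mice and at 4.03, 4.05 and 4.46 in KO mice (-0.30, standard error 0.17). A dimmer probe of the gene gave -0.08. *Ndufs1*, the largest subunit of the matrix arm, was at 4.93, 4.77 and 4.52 against 3.86, 4.53 and 4.80 (-0.34, standard error 0.26), with KO 1 far below the other mice and KO 3 above 2 of the WT mice.

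Among the other core subunits, *Ndufs8*, which holds iron-sulfur clusters, came closest to the threshold, at 4.93, 5.40 and 5.08 in WT mice and 4.66, 4.56 and 4.94 in KO mice (-0.41, standard error 0.18, unadjusted p = 0.0526 from limma). *Ndufs3* was at -0.38 (standard error 0.19) and *Ndufs7* at -0.26 (standard error 0.24). In these 3 genes KO 3 lay above at least 1 WT mouse. The sign of *Ndufs7* turned to 0.02 after quantile normalization with all spots used.

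The other subunits were not called. Their differences lay between -0.51 (*Ndufs5*, where KO 1 at 2.90 was far below the other mice) and -0.05 (*Ndufb11*, where WT 2 at 3.18 was below all KO mice). The accessory matrix arm subunit *Ndufa5* is named because its difference was large with marked spots left out (-0.54, on a probe with 2 WT values, unadjusted p = 0.0587 from limma). On its brightest probe with all spots used it was -0.35. In 8 genes with 2 detected probes, both probes were below 0 and differed by 0.22 at most.

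**Figure D4:**
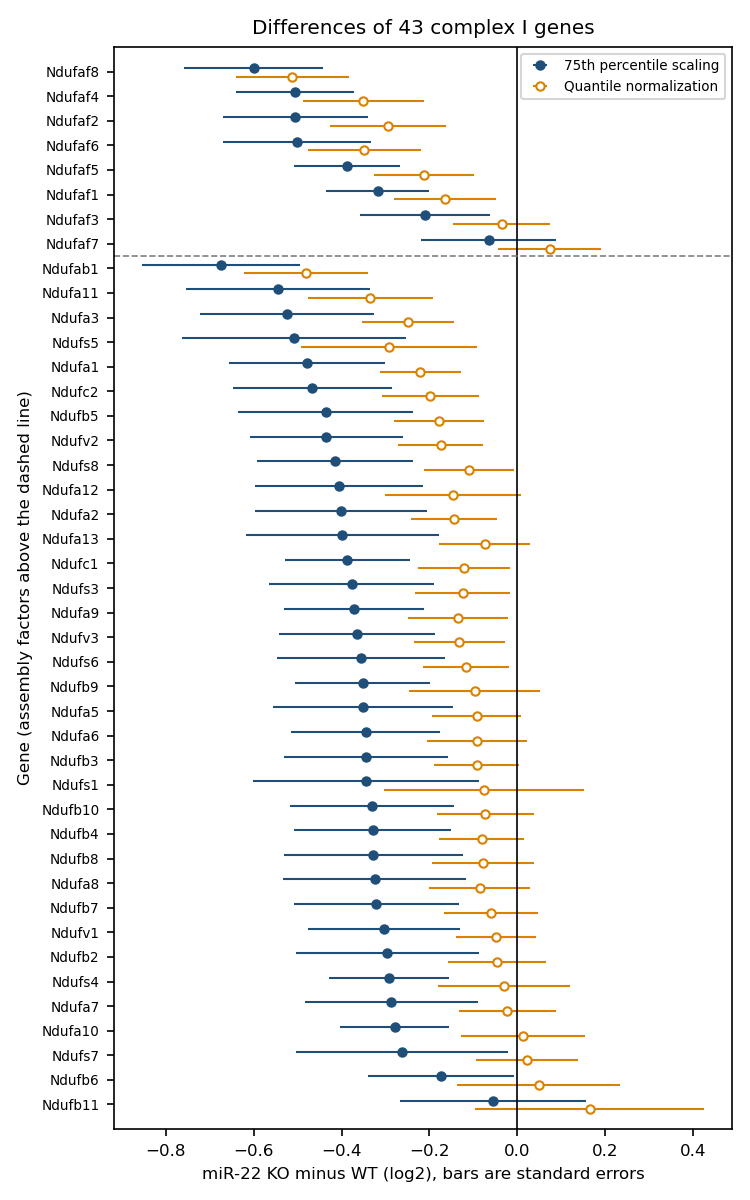
Difference between miR-22 KO and WT mice (log2, points) with its standard error (bars) for 43 of the 44 complex I genes, all spots used, after 75th percentile scaling (filled) and quantile normalization (open). The 8 assembly factors stand above the dashed line. With the first scaling the points of all 43 genes lie below 0, and with the second those of Ndufa10, Ndufb6, Ndufb11, Ndufs7 and Ndufaf7 lie above it.

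Of the 8 assembly factors, 6 were downregulated when all spots were used, and in those 6 no KO value reached the WT range. Of all genes 11.1% were called lower and 17.1% were separated in this way, and 19.3% were called lower in the group of signal that held 6 of the 8. *Ndufaf8* and *Ndufaf5* act as a pair, *Ndufaf5* being an enzyme that modifies *Ndufs7* and *Ndufaf8* its stabilising partner. *Ndufaf8* was at 1.79, 2.0 and 1.66 in WT mice and at 1.11, 1.11 and 1.42 in KO mice (-0.60, standard error 0.16, adjusted p = 0.123 from limma). *Ndufaf5* was at 2.77, 2.85 and 2.90 against 2.50, 2.39 and 2.47 (-0.39, standard error 0.12, adjusted p = 0.159 from limma). The spread of *Ndufaf5* on this probe was small, with an SD of 0.06 in WT and in KO mice, but the spots of WT 2 and WT 3 were marked. With marked spots left out a dimmer probe stood for the gene and gave -0.33 (SD 0.16 in WT and 0.12 in KO mice). It was not called there (unadjusted p = 0.0626 from limma).

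*Ndufaf3* and *Ndufaf4* bind each other and the ubiquinone module early in assembly. *Ndufaf4* was at 2.62, 2.65 and 2.48 in WT mice and at 2.19, 2.10 and 1.94 in KO mice (-0.51, standard error 0.13, adjusted p = 0.123 from limma), and KO 3 was the lowest of the 6 mice. *Ndufaf3* was at 2.67, 2.98 and 2.97 against 2.60, 2.59 and 2.81 (-0.21, standard error 0.15) and was not called. A direct test of the difference between both genes was not made.

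*Ndufaf6*, needed early for the membrane part, was at 2.40, 2.92 and 2.54 in WT mice and at 2.13, 2.05 and 2.17 in KO mice, with no marked spot (-0.50, standard error 0.17, adjusted p = 0.178 from limma). *Ndufaf2*, a relative of the subunit *Ndufa12* that acts late in assembly, was at 3.25, 3.58 and 3.47 against 3.02, 2.69 and 3.09 (-0.51, standard error 0.17, adjusted p = 0.174 from limma). *Ndufaf1*, part of the complex that builds the membrane arm, was at 2.61, 2.50 and 2.57 against 2.28, 2.22 and 2.23 (-0.32, standard error 0.12, adjusted p = 0.204 from limma). *Ndufaf7*, a methyltransferase, showed the smallest difference of the 8, at 2.21, 2.35 and 2.46 in WT mice and 2.16, 2.16 and 2.51 in KO mice (-0.07, standard error 0.15), and its second probe gave -0.06. After quantile normalization with all spots used *Ndufaf7* was at 0.07, and after the same normalization with marked spots left out *Ndufaf3* was at 0.03.

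**Figure D5:**
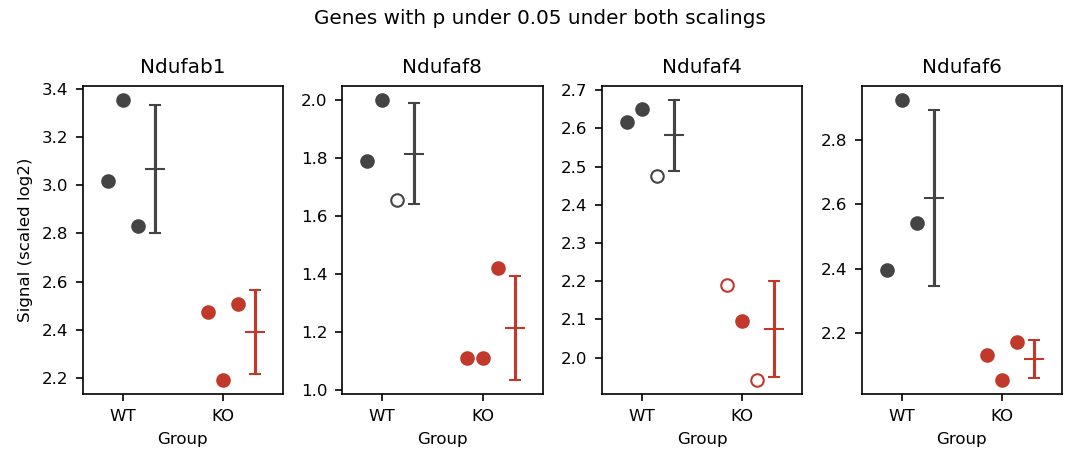
Scaled log2 signal in each mouse of the 4 genes with an unadjusted p under 0.05 under both scalings with all spots used, with bars for the mean and SD of 3 mice. Open points are spots marked as not uniform, the vertical axes differ between the genes and do not start at 0, and in each gene all KO mice lie below all WT mice with 75th percentile scaling.

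Subunits and assembly factors were set against each other within each mouse. The mean of the assembly factors minus that of the subunits was -1.83, -1.92 and -1.81 in WT mice, against -1.72, -1.84 and -2.07 in KO mice. The groups overlapped, KO 1 being the highest and KO 3 the lowest of the 6 mice. After quantile normalization the values were -1.84, -1.77 and -1.81 in WT mice, against -1.84, -1.95 and -1.98 in KO mice, with KO 1 level with WT 1. The median of the assembly factors minus that of the subunits was -0.09 with all spots used, and it turned to 0.09 without KO 3. Before quantile normalization, a larger fall of assembly factors than of subunits was therefore not beyond the spread between mice. After quantile normalization all KO mice lay below all WT mice, but KO 1 (-1.8446) and WT 1 (-1.8438) were almost equal. The answer thus depended on the scaling, and the difference between the falls was not tested.

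Assembly factors not named Nduf were taken from a list of 10 genes, all tested when all spots were used. All 10 were below 0 (against 55.9% of all genes), with a median of -0.28, and 1 was downregulated (against 11.1% of all genes). After quantile normalization with all spots used, 8 of the 10 were below 0 (against 54.9% of all genes). Their median was then -0.07, and 0 were downregulated (against 10.6%). Of 15 regulators of mitochondrial gene expression, 4 were downregulated (against 11.1% of all genes) and 1 was upregulated (against 9.47%) when all spots were used, with a median of -0.20. The downregulated ones were *Ppargc1a* (-0.59, standard error 0.15), a cold-induced coactivator of mitochondrial genes, *Tfb2m* (-0.56, standard error 0.13), a mitochondrial transcription factor, *Gabpa* (-0.68, standard error 0.26), an ETS factor, and *Esrra* (-0.49, standard error 0.16), an orphan nuclear receptor that works with *Ppargc1a*. *Esrrb*, a receptor of the same family, was upregulated (1.05, standard error 0.30). The adjusted p of these 5 genes lay between 0.104 and 0.214 from limma. With marked spots left out, *Esrra* (-0.53) and *Esrrb* (1.05) kept an unadjusted p under 0.05, *Gabpa* (-0.39) did not, and *Ppargc1a* and *Tfb2m* could not be tested. After quantile normalization with all spots used, 3 of the 15 regulators were downregulated (against 10.6% of all genes) and 1 was upregulated (against 8.01%). The median of the 15 was then -0.14.

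The other 10 regulators were not called. *Ppargc1b* was at -0.95 (standard error 0.53), *Tfam* at -0.29 (standard error 0.19), *Polg* at -0.25 (standard error 0.14), *Yy1* at -0.20 (standard error 0.17) and *Polrmt* at -0.20 (standard error 0.18). *Esrrg* (0.00), *Gabpb1* (0.02), *Pprc1* (0.10), *Tfb1m* (0.14) and *Nrf1* (0.18) were at or above 0.

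Markers of brown adipocytes were present in all mice. *Ucp1* was at 5.51, 5.85 and 5.53 in WT mice and at 5.10, 5.0 and 5.65 in KO mice (-0.38, standard error 0.21, unadjusted p = 0.116 from limma), and again KO 3 lay within the WT range. Of 12 brown adipocyte markers, 10 were below 0 and 2 were downregulated (against 11.1% of all genes), and the log2 of their summed signal was 7.72 to 8.08 in WT mice and 7.25 to 7.75 in KO mice. Of 10 markers of adipocytes in general, 8 were below 0 and 0 downregulated, with sums of 8.04 to 8.42 against 7.65 to 8.20. For 10 macrophage markers, 9 were above 0 and 1 was upregulated (4.69 to 4.93 against 4.85 to 5.17). Of 8 white adipocyte markers tested, 6 were above 0, with 1 downregulated and 1 upregulated (3.12 to 3.71 against 2.95 to 3.86). The nerve and Schwann cell markers were the list whose sums did not overlap in the direction of the complex I genes, at 4.80 to 5.11 in WT mice and 4.49 to 4.57 in KO mice. The mean log2 signals of this list did overlap, at -0.13, -0.03 and -0.57 in WT mice and -0.63, -0.54 and -0.45 in KO mice. Of 9 tested, 8 were below 0, with a median of -0.30 and 2 downregulated, and after quantile normalization all 9 were below 0, with a median of -0.31 and again 2 called. Of 10 endothelial markers 7 were below 0 with none called, and of 6 erythroid markers 4 were below 0 with 1 upregulated. Of 7 lymphocyte markers all were above 0 with 1 upregulated. The lymphocyte sums were lower in each WT mouse (up to -0.154) than in each KO mouse (from -0.153). The mean log2 signals of the lymphocyte list overlapped (up to -3.29 in WT mice, from -3.40 in KO mice). No marker of these lists passed after adjustment. The part of these differences in the result for complex I was not tested.

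RNA of skeletal muscle, a tissue rich in complex I, was present to differing degrees. Of 20 muscle markers, 1 was below 0 (against 55.9% of all genes), with a median difference of 1.75. None was called in either direction (against 11.1% of all genes lower and 9.47% higher). The log2 of their summed signal ranged from 3.81 to 7.38 in WT mice and from 5.33 to 8.05 in KO mice. Their mean log2 signal was lowest in WT 3 (-4.17) and highest in KO 2 (3.34). With that mean as a covariate and all spots used, 43 of 44 complex I genes were below 0 and 8 were downregulated (against 8.04% of all genes).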

How the data were processed

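BAT of 3 WT mice and 3 mice lacking miR-22, grouped by their labels, was profiled on 6 Agilent mouse gene expression arrays. The intensity values were deposited by the authors as scanner output of Agilent Feature Extraction (version 11.5.1.1 per the file headers, 10.7 per the submitters' processing notes), background-subtracted and detrended but not scaled between arrays. The marks for spots that were not uniform come from the same software. The authors also deposited log2 values of 27497 probes, whose processing is not given in the sources used here and whose 6 columns reach an identical maximum.

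Arrays were scaled by their 75th percentile over all non-control spots (1435 to 2633 units of intensity) before taking log2. Probes well above background on at least 3 arrays were kept. Marked spots were left out, with at least 2 values per group required, or kept. Overall 4.87 to 17.1% of the spots of an array were marked, most on WT 3 and KO 1. Probes were matched to genes by RefSeq accession (33767 of 56605 probes), and the brightest testable probe stood for its gene. WT and KO mice were compared by limma 3.58.1 (lmFit, eBayes; R 4.3.3, data.table, version 1.17.8), two-sided, at an unadjusted p under 0.05 as in the study's methods and with Benjamini-Hochberg adjustment over all genes tested. The test was checked on simulated data. The number of arrays limits the precision.

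Complex I genes and lists were chosen with earlier results of these data known. Named genes were those at an unadjusted p under 0.05 in either fit, the 3 with the largest differences in each direction with marked spots left out, the 7 nuclear core subunits and all assembly factors. The values of 1 gene are not reported here, though counts and medians include it. Genes of other lists were named when called in both fits, and all regulators. A gene named outside this rule is given for a spread or a sign noticed in its values. The results were recomputed with quantile normalization, median scaling, normexp (offset 50), the authors' values, other filters on dim probes, averaged probes, the methods' t-test, SAM, trended and robust eBayes, the slide row as a block, the muscle mean as a covariate and leaving out arrays. Sequences are from RefSeq on GRCm38.p6, and 39 of 44 genes had a promoter. Mature miR-22 has no matched probe, so its loss was not checked. Its host transcript, *Mir22hg*, was higher in KO mice (0.75, standard error 0.17, adjusted p = 0.102 from limma with all spots used).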

Additional observations from a re-analysis of the deposited data

How the results depend on the processing

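No complex I gene passed the adjusted threshold under any alternative run, by limma or SAM. With marked spots left out (3 of 20 downregulated, medians -0.35 and -0.41 for subunits and assembly factors), quantile normalization gave medians of -0.077 and -0.29, a gap of -0.21 in place of -0.07, and the authors' values gave -0.060 and -0.23, with 11 of 13 genes below 0 and 2 downregulated. Normexp gave -0.32 for assembly factors, trended and robust eBayes 5 downregulated genes, and the row as a block 0 of 9, all 9 below 0. Leaving out 1 mouse gave 1 (without WT 2, where 9 genes could be tested) to 9 (without KO 3, of 13) downregulated genes, with 9 to 20 genes below 0 and assembly factor medians from -0.53 to -0.29. With marked spots kept, the counts were 13 of 44 downregulated and 44 below 0, quantile normalization gave 4 and 39 with medians of -0.092 and -0.25, the row as a block 0 and 44, and the muscle covariate 8 and 43. Leaving out 1 mouse then gave 4 to 33 downregulated genes and a gap of assembly factor and subunit medians from -0.20 to 0.089. Over the named genes and alternatives, 337 of 342 differences were below 0, 59 lost and 9 gained an unadjusted p under 0.05, and 5 changed sign: *Ndufaf3* after quantile normalization (0.028), *Ndufaf7* with marked spots kept after quantile normalization (0.074) and in the authors' values (0.082), and *Ndufs7* with marked spots kept and quantile normalization (0.022) and in the authors' values (0.039). The cause of these changes was not tested. With marked spots kept, leaving out mice, median scaling, SAM and the authors' values were added after the data were seen. Matching by array gene names was not run, since the files used hold no such column. No paired analysis was possible because the groups share no replicate numbers in the labels.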

Other observations

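Genes of the other respiratory chain complexes were examined with all spots used, where 11.1% of all genes were called lower and 9.47% higher. The share called lower was 25% in complex II, 33.3% in complex III, 6.67% in complex IV and 0% in ATP synthase, against 19.4% of complex I subunits. None of these genes passed after adjustment. In the brightest group of signal 94.2% of all genes were below 0. All 4 nuclear subunits of complex II were below 0, with a median difference of -0.35 and 1 downregulated. All 9 of complex III were below 0, with a median of -0.44 and 3 downregulated. Of 15 genes of complex IV, 12 were below 0, with a median of -0.38, 1 downregulated and 1 upregulated. Of 16 genes of ATP synthase, 15 were below 0, with a median of -0.32 and 0 downregulated. After quantile normalization the medians of the 4 complexes were -0.07, -0.15, -0.11 and -0.05, close to that of the complex I subunits (-0.09), and the gene upregulated in complex IV was the same. That gene, *Cox6b2*, known as the testis form of a complex IV subunit, was at 0.56 (standard error 0.17, adjusted p = 0.151 from limma) and was also upregulated with marked spots left out. *Ndufa4*, which shares the symbol stem but belongs to complex IV, was at -0.36 (standard error 0.19), near the median of the complex I subunits, and *Ndufa4l2* at -0.13 (standard error 0.13), neither at an unadjusted p under 0.05 from limma.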
